A study of Mus musculus with 8 samples.

Results

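Minoxidil is known to open ATP-sensitive potassium channels, and the genes described here are those of that channel, of the enzyme that activates the drug and of prostaglandin synthesis and reception. The 10 genes were listed by symbol: Kcnj8, Kcnj11, Abcc8, Abcc9, Sult1a1, Ptgs1, Ptgs2, Ptgds, Ptger4 and Ptgfr. Of these, 9 were matched to 1 probe set each among the 22206 probe sets tested, of which 19572 carried 1 gene symbol, for 19505 genes in all. Ptgs1, the constitutive cyclooxygenase, matched no probe set by symbol in the annotation used and was not analysed here.

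The arrays measured RNA of skin from C3H males, mice of an inbred strain aged 7 weeks, which after 7 days of acclimatisation had the back depilated with a cream and the compound applied there daily for 20 days. There were 4 groups with 2 Clariom S Mouse arrays each: 1% minoxidil, 1% tieghemelin, 1% maslinic acid, and Milli-Q water as the control. The labels of minoxidil array 2 disagree, with a strength of 1% in the description and of 2% in the source. The control arrays were titled as controls of tieghemelin and maslinic acid, with no other control for minoxidil. Groups of 8 mice are given in the labels without saying which mice an array stands for, so the p-values describe array-to-array spread, which may be technical. All values below are deposited log2 values of a probe set, and they compare a gene with itself across arrays and not with other genes.

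ATP-sensitive potassium channels join a pore of Kir6 subunits with regulatory sulfonylurea receptors, and they couple the metabolic state of a cell to its membrane voltage. In vessels the pore is mostly Kir6.1 with the receptor SUR2B, and minoxidil acts there after a sulfotransferase has converted it to minoxidil sulfate. Prostaglandins are made from arachidonic acid by cyclooxygenases and then by terminal synthases. In hair biology, agonists of the prostaglandin F receptor are known to lengthen eyelashes, whereas prostaglandin D2 has been linked to the inhibition of hair growth.

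Among the 9 measured genes, Ptgs2 and Ptgfr were the ones whose treated arrays lay on 1 side of both control arrays in each of the 3 comparisons with control, and the bases before their starts are shown for that reason. Of all probe sets, 36.2%, 40.7% and 38.7% lay apart from control with minoxidil, tieghemelin and maslinic acid. The 3 comparisons share the same control arrays, and the share of all probe sets apart in all 3 was not counted. The sequences are the 250 bases before each gene's start, 5′ to 3′ on the gene's strand, from RefSeq on GRCm38.p6, at chr1:150099781-150100030 on the plus strand for Ptgs2 and chr3:151837529-151837778 on the minus strand for Ptgfr. Capitals mark a GC box, GGGCGG, a motif bound by factors of the SP family.
Ptgs2: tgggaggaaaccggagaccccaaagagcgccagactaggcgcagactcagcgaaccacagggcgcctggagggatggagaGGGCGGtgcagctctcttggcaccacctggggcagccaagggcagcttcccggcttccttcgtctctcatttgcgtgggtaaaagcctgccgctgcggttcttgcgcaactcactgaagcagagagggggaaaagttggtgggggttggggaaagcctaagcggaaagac
Ptgfr: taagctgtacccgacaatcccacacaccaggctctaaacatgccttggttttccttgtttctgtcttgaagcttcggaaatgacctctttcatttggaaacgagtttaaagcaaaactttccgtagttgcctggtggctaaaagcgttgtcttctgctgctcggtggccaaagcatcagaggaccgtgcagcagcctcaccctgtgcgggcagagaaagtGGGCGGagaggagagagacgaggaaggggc
The GC box began 170 bases before the start in Ptgs2 and 30 bases before it in Ptgfr. Searched on both strands, it was present in 4 of the 8 promoters found for the listed genes (Abcc9, Ptger4, Ptgfr and Ptgs2) and in 32.7% of 32851 promoters of the same length. The letters TGACG, the short form of a cAMP response element, were found in Kcnj8 alone of the 8, against 17.8% of all promoters. The E-box CACGTG (6.02% of all promoters) and the TATA box TATAAA (12.4%) were found in none of the 8 windows.

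Levels were read against background, taken as the median on an array of 23 antigenomic control probe sets designed to have no target in the genome. The median of 23 is the value of 1 probe set, which could stand in a wide gap. On tieghemelin array 2 it was 6.97, where a value of 6.39 had 11 sets below it and a value of 7.64 had 12. Calls below background, bounds on a fold and the centring on this median all depend on that 1 set per array. That median was 7.51 and 7.33 with minoxidil, 7.02 and 6.97 with tieghemelin, 6.96 and 7.08 with maslinic acid, and 7.75 and 7.61 on the control arrays, so it moved with the groups. Control array 1 stood apart, with a Pearson r of 0.518 to 0.538 to the other arrays across probe sets, where the other 7 arrays had 0.901 to 0.966 among themselves, and the differences from control of the 9 genes were therefore also taken without it. Of 8 keratinocyte markers, 8 lay above background on each of those 7 arrays and 6 on control array 1, where Krt14 and Krt15 lay below it. Spike-in control probe sets were also low on control array 1. A bioB set read 4.48 there against 8.29 to 8.92 on the other 7 arrays, and a cre set 6.25 against 12.45 to 12.81. The median percentile of ribosomal protein genes was 67.6 there and 85.4 to 94.5 on the others. The cause was not tested, and this array is 1 of the 2 controls in every fit of all 8 arrays.

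No listed gene passed the test in any of 6 comparisons, 3 with control and 3 between treatments. In limma's fit of all 8 arrays, the smallest of the 54 unadjusted p-values was 0.108 and the smallest adjusted p was 0.463. The thresholds of the study were a 1.7-fold change and an unadjusted p of 0.05, and 0 of 9 listed genes met these thresholds, against 11.3% of all probe sets for minoxidil, 11.7% for tieghemelin and 10.8% for maslinic acid, each against control. Between treatments the counts were 0 of 9 as well, where 3.3% of all probe sets met them for tieghemelin against minoxidil, 3.6% for maslinic acid against minoxidil and 0.306% for tieghemelin against maslinic acid. At an adjusted p under 0.05 limma called 0 of all 22206 probe sets in each comparison, and a model without moderation also called 0, so the absence of a call was not particular to these genes. The 95% intervals of the listed genes reached 0.77 to 1.22 log2 units on either side of their estimates, so differences up to that size could not be told from none.

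**Figure D1:**
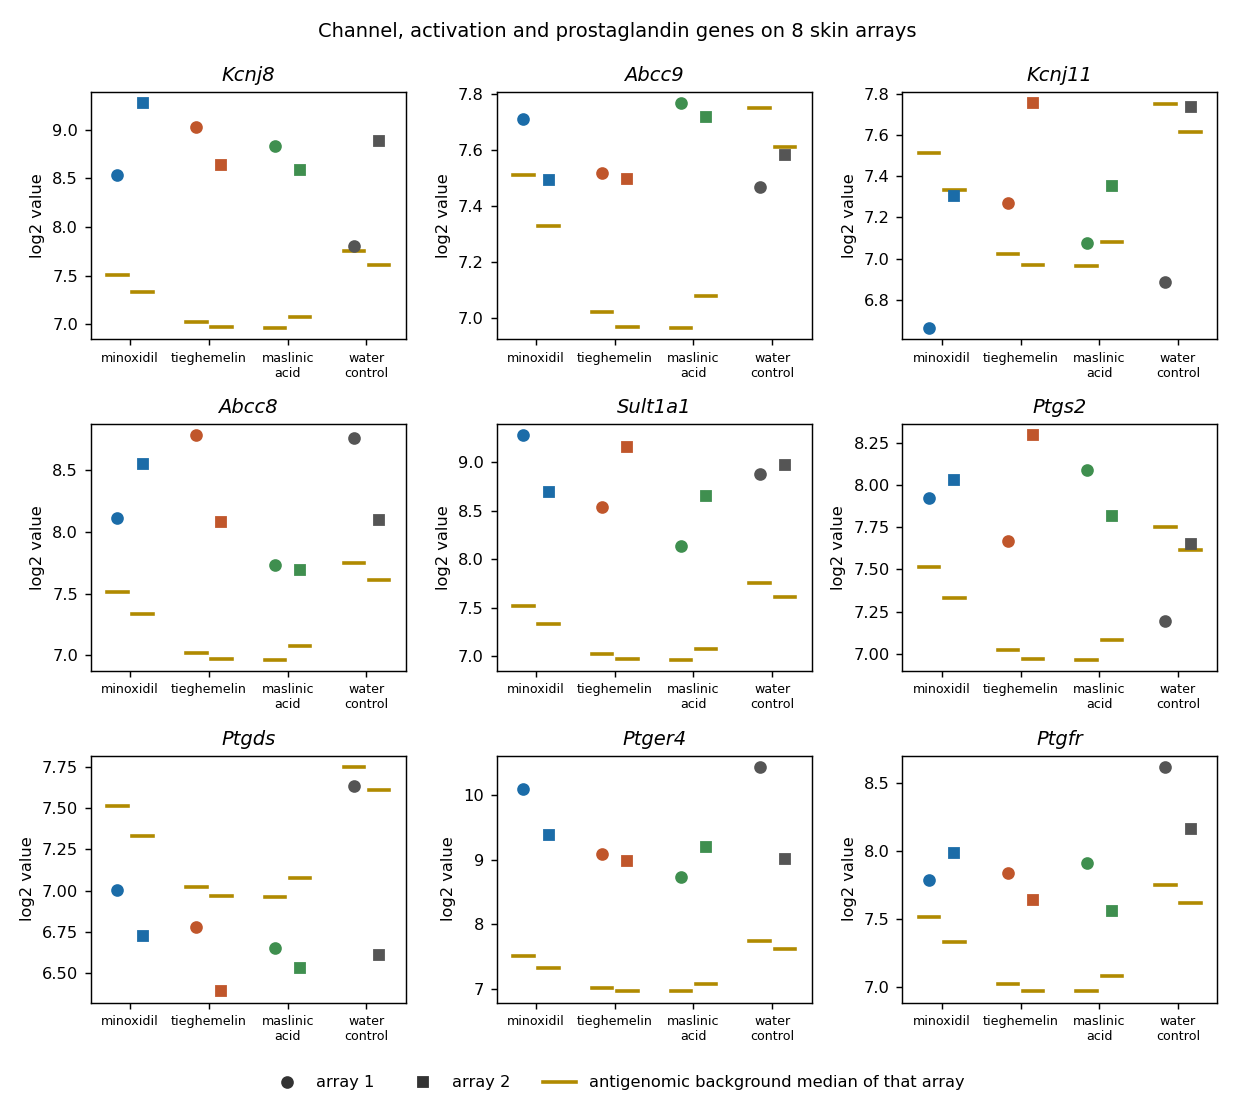
Deposited log2 values of the 9 measured genes (vertical axis, with its own scale in each panel) on the 2 arrays of each treatment and of the water control (horizontal axis). Circles are array 1, squares are array 2, and the short bars are the antigenomic background median of the same array. Ptgs2 lies above both control arrays on all 6 treated arrays, Ptgfr lies below them, and Ptgds lies under the bar on every array.

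The channel genes came in 2 pairs of neighbours: Kcnj8 lies beside Abcc9 on chromosome 6, and Kcnj11 beside Abcc8 on chromosome 7, with no other protein-coding gene between them in RefSeq. Kcnj8 encodes Kir6.1, the pore of the vascular channel. It read 8.53 and 9.27 with minoxidil, 9.03 and 8.64 with tieghemelin, 8.84 and 8.58 with maslinic acid, and 7.80 and 8.88 on the control arrays. The 6 treated arrays spread around control array 2, while control array 1 lay below all of them, so every group of treated arrays overlapped the controls. Against control, Kcnj8 differed by 0.56 with minoxidil (SE 0.48, 95% interval -0.54 to 1.66), by 0.49 with tieghemelin and by 0.36 with maslinic acid. Without control array 1 these differences were 0.02, -0.05 and -0.18. Without control array 2 they were 1.10, 1.03 and 0.91, and Kcnj8 then met the study's thresholds for minoxidil and tieghemelin, where 47.3% and 47.5% of all probe sets did so.

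Abcc9 encodes SUR2, the regulatory subunit whose SUR2B form binds minoxidil sulfate. It read 7.71 and 7.49 with minoxidil, 7.52 and 7.50 with tieghemelin, 7.77 and 7.72 with maslinic acid, and 7.47 and 7.58 on the control arrays. Its span over the 8 arrays, 7.47 to 7.77, was the narrowest of the 9 genes. Both maslinic acid arrays lay above every other array, and neither control array was above its background median. With the control set to background, Abcc9 was at least 1.04-fold higher with maslinic acid (log2 difference 0.22, SE 0.33, limma adjusted p = 0.776, and 0.16 without control array 1), and there is no fold for minoxidil or tieghemelin, where that left no difference.

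Kcnj11, the Kir6.2 pore of pancreatic beta cells and striated muscle, read 6.66 and 7.30 with minoxidil, 7.27 and 7.75 with tieghemelin, 7.08 and 7.35 with maslinic acid, and 6.89 and 7.74 on the control arrays. It lay below background on both minoxidil arrays and on control array 1. All 4 groups overlapped, and the estimates against control were -0.33 with minoxidil, 0.20 with tieghemelin and -0.10 with maslinic acid (SE 0.44 each). These became -0.75, -0.22 and -0.52 without control array 1, so the direction for tieghemelin turned. Against minoxidil, set to background, Kcnj11 was at least 1.06-fold higher with tieghemelin.

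Abcc8, which encodes SUR1, the partner of Kir6.2 in beta cells and neurons, read 8.11 and 8.55 with minoxidil, 8.78 and 8.08 with tieghemelin, 7.73 and 7.69 with maslinic acid, and 8.76 and 8.10 on the control arrays. The maslinic acid arrays were the lowest of the 8, with no overlap with any other group. The difference was -0.72 against control (SE 0.42, limma adjusted p = 0.501) and -0.62 against minoxidil, while tieghemelin minus maslinic acid came to 0.72 (95% interval -0.25 to 1.69). The other 3 groups overlapped one another. Without control array 1 the difference of maslinic acid from control was -0.39.

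Cells that are known to carry these channels were followed by marker lists. The 10 markers of pericytes and smooth muscle averaged 7.67 and 7.51 with minoxidil, 7.31 and 7.39 with tieghemelin, 7.60 and 7.24 with maslinic acid, and 8.03 and 7.82 on the control arrays, with 4 to 9 of 10 above background on an array. Tagln was above background on control array 1 alone, and Rgs5 and Notch3 were above it on every array. The 12 skeletal muscle markers averaged 11.03 and 10.60 with minoxidil, 9.18 and 8.78 with tieghemelin, 11.78 and 9.19 with maslinic acid, and 12.37 and 13.93 on the control arrays, with at least 11 of 12 above background on each array. Relative to control, 5 of the 10 pericyte markers had a higher group mean with minoxidil, 3 with tieghemelin and 4 with maslinic acid. The rest were lower. Des was at least 9.70 in control skin and at most 8.04 in treated skin. Pdgfrb was at least 8.96 under minoxidil and at most 8.74 in control skin. All 12 muscle markers had a lower group mean with each compound. The averages of both lists were lower on all 6 treated arrays than on the control arrays. For the pericyte list that order rested on Des, since without Des minoxidil array 1 did not average below control array 2. Kcnj8, Abcc9, Kcnj11 and Abcc8 did not show that order. Above background neither list kept it: the pericyte list averaged 0.16 to 0.63 on treated arrays against 0.21 and 0.28 on control arrays, and the muscle list 4.82 on maslinic acid array 1 against 4.62 on control array 1. In whole skin, fewer cells of a type and less RNA per cell cannot be told apart, and the part of these cells in the values above was not tested.

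Sult1a1 encodes the sulfotransferase that turns minoxidil into its active sulfate. It read 9.28 and 8.69 with minoxidil, 8.53 and 9.16 with tieghemelin, 8.13 and 8.65 with maslinic acid, and 8.88 and 8.97 on the control arrays, and was 1.13 to 2.19 above the background median on every array. The minoxidil and tieghemelin arrays lay on either side of the controls, and the maslinic acid arrays lay below them. The difference from control was 0.06 with minoxidil (SE 0.41, 95% interval -0.89 to 1.01), -0.08 with tieghemelin and -0.54 with maslinic acid, and 0.01, -0.13 and -0.58 without control array 1. Maslinic acid differed from minoxidil by -0.59, with no overlap of the arrays. It was one of the 3 genes, with Abcc8 and Ptgfr, that were lower than control on both maslinic acid arrays.

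Ptgs2 encodes the inducible cyclooxygenase. It read 7.92 and 8.03 with minoxidil, 7.67 and 8.30 with tieghemelin, 8.09 and 7.81 with maslinic acid, and 7.19 and 7.65 on the control arrays. All 6 treated arrays were above both control arrays, although tieghemelin array 1 was only just above control array 2. The differences from control were 0.56 with minoxidil, 0.56 with tieghemelin and 0.53 with maslinic acid (SE 0.39 each, limma adjusted p = 0.531, 0.528 and 0.566), and they were 0.32, 0.33 and 0.30 without control array 1. These 3 comparisons share the same 2 control arrays and are not independent. Ptgs2 was above background on all 6 treated arrays and, by 0.04, on control array 2. Between treatments the difference was 0.01 for tieghemelin minus minoxidil (95% interval -0.89 to 0.90).

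Ptgds encodes the lipocalin-type synthase of prostaglandin D2. It read 7.002 and 6.73 with minoxidil, 6.78 and 6.39 with tieghemelin, 6.65 and 6.53 with maslinic acid, and 7.64 and 6.61 on the control arrays. It lay below the background median on each of the 8 arrays, with 11 of the 23 antigenomic probe sets below it on each, so no fold is given for it.

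Ptger4 encodes EP4, a receptor of prostaglandin E2 that raises cAMP and was 1.40 to 2.69 above background. It read 10.10 and 9.38 with minoxidil, 9.09 and 8.99 with tieghemelin, 8.73 and 9.19 with maslinic acid, and 10.44 and 9.02 on the control arrays. Both minoxidil arrays lay above the 4 tieghemelin and maslinic acid arrays, and the control arrays spanned nearly the whole range. Tieghemelin differed from minoxidil by -0.70 (95% interval -1.92 to 0.51) and maslinic acid by -0.78 (95% interval -1.99 to 0.44), with a limma adjusted p above 0.99 in both. Without control array 1, whose spread enters the fit, the same -0.78 had an unadjusted p = 0.0413 and met the study's thresholds, as did 11.1% of all probe sets, with an adjusted p = 0.345. Against control the differences were 0.01, -0.69 and -0.77 for minoxidil, tieghemelin and maslinic acid, and 0.72, 0.02 and -0.06 without control array 1, so the sizes rested on that array.

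Ptgfr encodes FP, the receptor of prostaglandin F2α. It read 7.79 and 7.98 with minoxidil, 7.84 and 7.64 with tieghemelin, 7.91 and 7.56 with maslinic acid, and 8.62 and 8.16 on the control arrays. The treated arrays were all below the controls and overlapped one another. The differences from control were -0.51, -0.65 and -0.66 for minoxidil, tieghemelin and maslinic acid (SE 0.36 each, limma adjusted p = 0.541, 0.463 and 0.493), and -0.28, -0.42 and -0.43 without control array 1. The background median also differed from control, by -0.26, -0.69 and -0.66 in the same order, so that above background Ptgfr averaged 0.46 ± 0.27 with minoxidil, 0.74 ± 0.10 with tieghemelin, 0.71 ± 0.33 with maslinic acid and 0.71 ± 0.23 on the control arrays (SD, n = 2 each).

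**Figure D2:**
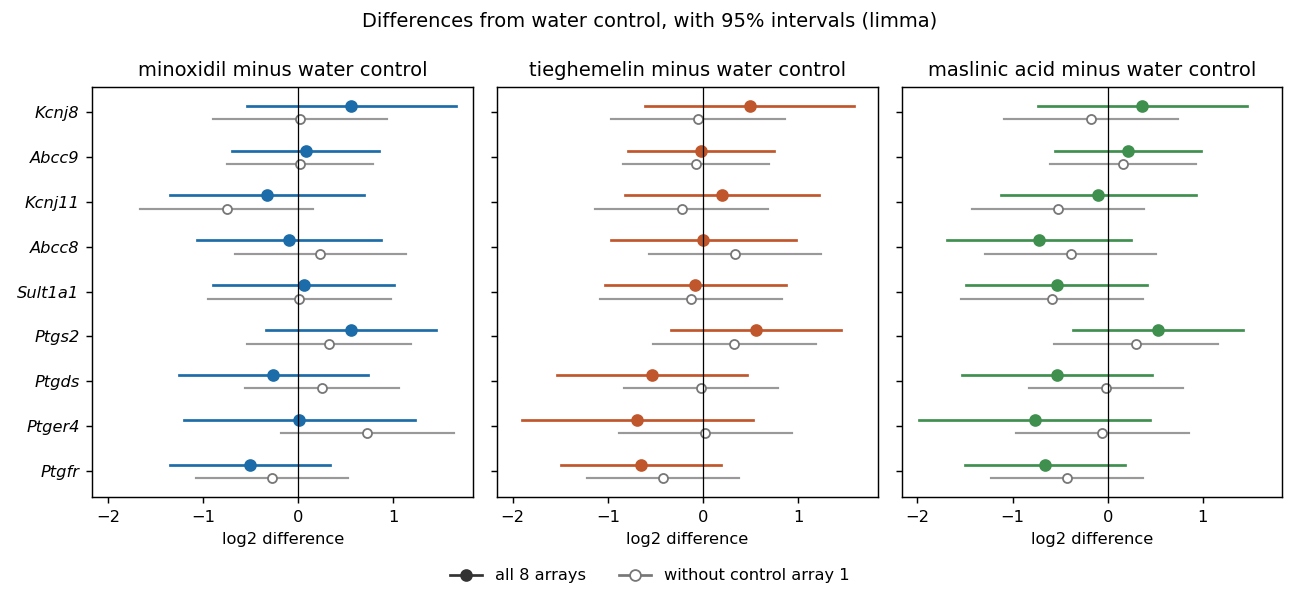
Log2 difference of each gene from the water control (horizontal axis) for minoxidil, tieghemelin and maslinic acid, with 95% intervals from limma. Filled points use all 8 arrays and open points leave out control array 1. All intervals with 8 arrays cross 0. Without control array 1 the Ptgs2 and Ptgfr estimates also move toward 0 but keep their sides of it. Those of Kcnj8 and Ptger4 move close to 0 or past it, except Ptger4 with minoxidil, which moves away from 0.

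The share of the 9 genes whose arrays did not overlap between groups was below that of all probe sets in 4 of 6 comparisons and above it for maslinic acid against control and against minoxidil. Against control, 2 of the 9 genes were apart with minoxidil and 2 with tieghemelin, in both cases Ptgs2 above and Ptgfr below, where 36.2% and 40.7% of all probe sets were apart. With maslinic acid 5 of 9 were apart (38.7% of all probe sets), Ptgs2 and Abcc9 above and Abcc8, Sult1a1 and Ptgfr below. Against minoxidil, 1 of 9 was apart with tieghemelin, which was Ptger4 (43.8%), and 5 of 9 with maslinic acid (43.6%), with Abcc9 above and Abcc8, Sult1a1, Ptger4 and Ptgds below. Ptgds lay below background on every array, so 1 of those 5 was a gene at background. Among 9 genes, 1 gene is 11.1% of the list, so neither share of 5 of 9 is read as a result about these genes. Tieghemelin and maslinic acid were apart for 2 of 9 (30.6%), Abcc8 above and Abcc9 below with tieghemelin. The median difference of the 9 genes from control was 0.01, -0.02 and -0.53 for minoxidil, tieghemelin and maslinic acid, beside 0.06, 0.05 and 0.05 over all probe sets.

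Because background moved with the groups, the differences were also taken after each array had been centred on its antigenomic median, an alternative chosen after seeing the data. This gave 0 of 9 genes at the thresholds for minoxidil against control, where 14.4% of all probe sets met them, and moved the median of all probe sets to 0.32 with minoxidil, 0.73 with tieghemelin and 0.71 with maslinic acid, each against control. Of the probe sets at the study's thresholds, 87.6%, 98.6% and 98.6% were then higher in treated skin, where 61.9%, 59.7% and 58.9% had been with the deposited values. Ptgs2 differed from control by 0.82, 1.25 and 1.19 on that scale, and met the thresholds with tieghemelin (unadjusted p = 0.0181, limma adjusted p = 0.116) and maslinic acid (0.0224, adjusted p = 0.137), along with 30.4% and 28.3% of all probe sets. Abcc9 also met them with maslinic acid (unadjusted p = 0.0354, limma adjusted p = 0.155), but it lay below background on both control arrays, so its size has only the bound of at least 1.04-fold given above. No listed gene met them between treatments. Ptgfr, which differed by -0.65 and -0.66 in the deposited values, stood at 0.04 with tieghemelin and 0.00 with maslinic acid, and Abcc8 at -0.06 with maslinic acid. Centring adds the same amount to every gene of a comparison, so it cannot move a gene relative to the median of all probe sets.

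**Figure D3:**
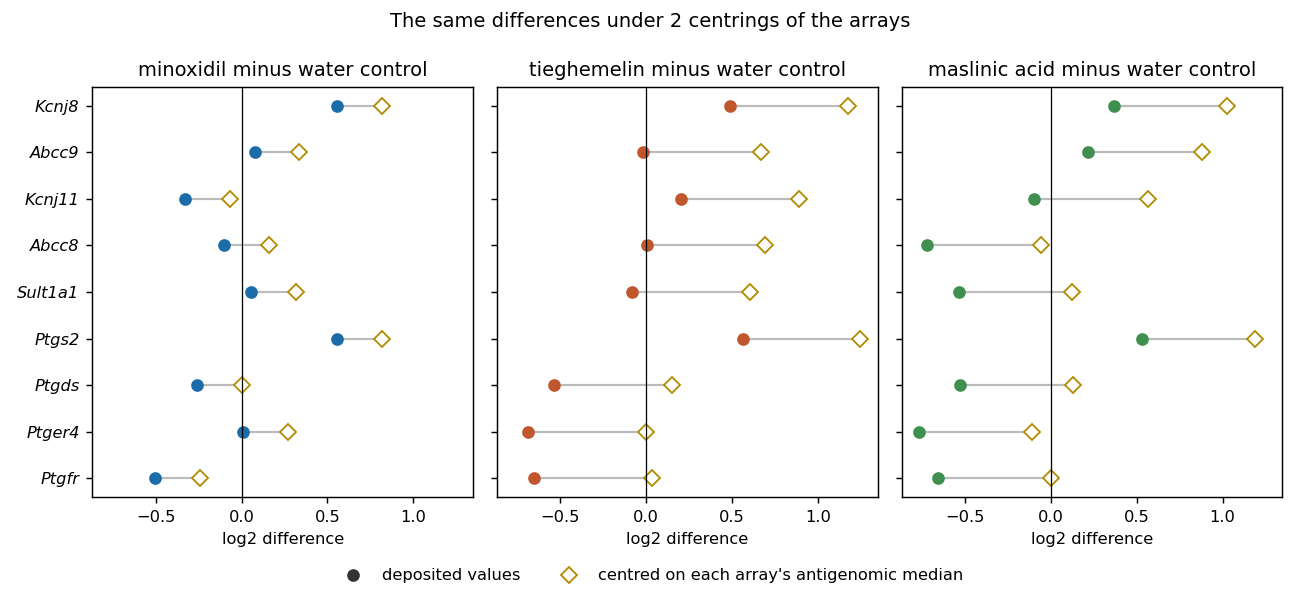
Log2 difference from the water control (horizontal axis) of the 9 genes for each treatment, with the deposited values (filled circles) and after each array was centred on its antigenomic background median (open diamonds). The shift is the same for all genes of a treatment, 0.26 for minoxidil, 0.69 for tieghemelin and 0.66 for maslinic acid, and it carries Ptgfr from below 0 to about 0 with tieghemelin and maslinic acid.

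Of 21 other genes of prostanoid metabolism and reception, 20 were measured. Against control, 0 met the study's thresholds with minoxidil, 2 with tieghemelin and 2 with maslinic acid, all higher, and the median difference was 0.27, 0.30 and 0.27. Of all probe sets, 6.98%, 7.02% and 6.39% met the thresholds higher with minoxidil, tieghemelin and maslinic acid, and 4.29%, 4.73% and 4.45% lower. The pair in both cases was Prxl2b, which encodes a synthase of prostaglandin F2α, and Ptger1, the prostaglandin E receptor EP1. Prxl2b read 7.28 and 7.02 with minoxidil, 9.57 and 9.28 with tieghemelin, 9.12 and 9.04 with maslinic acid, and 7.62 and 7.48 on the control arrays. It was below background on both minoxidil and both control arrays and at least 1.96 above it on the other 4. With those groups set to background it was at least 3.35-fold higher with tieghemelin and at least 2.63-fold higher with maslinic acid than in control skin (log2 differences 1.87 and 1.52, SE 0.34, limma adjusted p = 0.41 and 0.448). The differences from minoxidil were 2.28 and 1.93. Without control array 1 the difference of tieghemelin from control was 1.94, and over 15 fits it ran from 1.73 to 2.56. Fits that left 1 array in a group were among the 15, so no adjusted p is given for that range. Minoxidil differed from control by -0.41, and tieghemelin from maslinic acid by 0.35.

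Ptger1 read 8.00 and 8.29 with minoxidil, 8.93 and 8.41 with tieghemelin, 8.32 and 8.63 with maslinic acid, and 5.37 and 7.88 on the control arrays, so its difference rested on control array 1. It differed from control by 1.52, 2.05 and 1.86 for minoxidil, tieghemelin and maslinic acid with all arrays and by 0.27, 0.79 and 0.60 without that array. Ptger2, for the receptor EP2, and Ptges2, for a prostaglandin E synthase, differed from control by 1.34 and 1.14 with minoxidil, and Ptges2 by 1.07 with tieghemelin. Both were lowest on control array 1, at 6.59 and 7.16. Without that array Ptger2 differed by -0.22 with minoxidil, the opposite direction, and Ptges2 by 0.37 with minoxidil and 0.30 with tieghemelin. Ptgir, the prostacyclin receptor gene, exceeded background only on control array 1. With maslinic acid set to background it was at least 1.75-fold lower than control (log2 difference -1.09), and without control array 1 both groups lay below background.

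Of 15 other sulfation genes, 14 were measured. Against control, 11.3%, 11.7% and 10.8% of all probe sets met the study's thresholds with minoxidil, tieghemelin and maslinic acid. Of the 14 genes, 4 met them with minoxidil (3 higher, 1 lower), 2 with tieghemelin (1 higher, 1 lower) and 1 with maslinic acid (lower). Papss1, which encodes a synthase of the sulfate donor PAPS, was the lower one in each case. It read 7.56 and 6.84 with minoxidil, 7.08 and 7.002 with tieghemelin, 6.81 and 7.42 with maslinic acid, and 8.74 and 8.02 on the control arrays. Its treated values lay -0.49 to 0.34 from background, so they were near or below it. The treated arrays were all below the controls, by -1.18, -1.34 and -1.26 in the same order (SE 0.44, limma adjusted p = 0.44, 0.41 and 0.448). Without control array 1 the differences were -0.82, -0.98 and -0.90, of which the one for tieghemelin still met the thresholds, along with 13.7% of all probe sets. Centred on the antigenomic median they were -0.92, -0.65 and -0.60, and none met them. Papss2, the second PAPS synthase gene, differed from control by 0.98 with maslinic acid and by 0.53 without control array 1.

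Sult3a1, a sulfotransferase gene of mouse liver, read 9.61 and 10.47 with minoxidil, 8.98 and 9.43 with tieghemelin, 9.33 and 8.11 with maslinic acid, and 7.07 and 8.40 on the control arrays. The minoxidil arrays were the highest of the 8. It differed from control by 2.30 with minoxidil (SE 0.61, limma adjusted p = 0.44) and by 1.64 without control array 1, where it still met the study's thresholds, along with 12.9% of all probe sets. With tieghemelin the difference was 1.47 and with maslinic acid 0.99, and without control array 1 they were 0.81 and 0.32, where neither met the thresholds. Sult1c2 differed from control by 1.79 with minoxidil and by 0.84 without control array 1, where it no longer met the thresholds. Sult4a1, the third gene counted as higher with minoxidil, did not reach background on either control array or on minoxidil array 1. With the control set to background no difference was left for it with minoxidil or tieghemelin, so no fold is given.

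Of 13 other inward rectifier channel genes, all measured, 1 met the thresholds with minoxidil (higher), 1 with tieghemelin (lower) and 2 with maslinic acid (1 higher, 1 lower). Of all probe sets, 11.3%, 11.7% and 10.8% met them in the same order. Kcnj13, the Kir7.1 channel of epithelia, read 11.04 and 10.40 with minoxidil, 10.36 and 10.08 with tieghemelin, 9.42 and 10.06 with maslinic acid, and 8.91 and 9.78 on the control arrays. It differed from control by 1.38 with minoxidil (SE 0.46, limma adjusted p = 0.44) and by 0.94 without control array 1. Kcnj1, the ROMK channel of the kidney, read 6.83 and 7.39 with minoxidil, 8.37 and 7.81 with tieghemelin, 8.40 and 9.19 with maslinic acid, and 6.78 and 7.62 on the control arrays. On the control arrays it lay -0.97 and 0.003 from background, so its differences from control include distance below background. The maslinic acid arrays were the highest, with a difference from control of 1.60 (SE 0.48, limma adjusted p = 0.448) and of 1.18 without control array 1, where Kcnj13 with minoxidil and Kcnj1 with maslinic acid still met the thresholds, along with 12.9% and 12.8% of all probe sets. Kcnj2 was the lower gene counted with tieghemelin and maslinic acid, and no fold is given for it or for Kcnj4. Kcnj2 and Kcnj4 lay below background on all 8 arrays and Kcnj9 on every array but control array 1. With tieghemelin set to background, Kcnj9 was at least 1.07-fold lower than control.

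**Figure D4:**
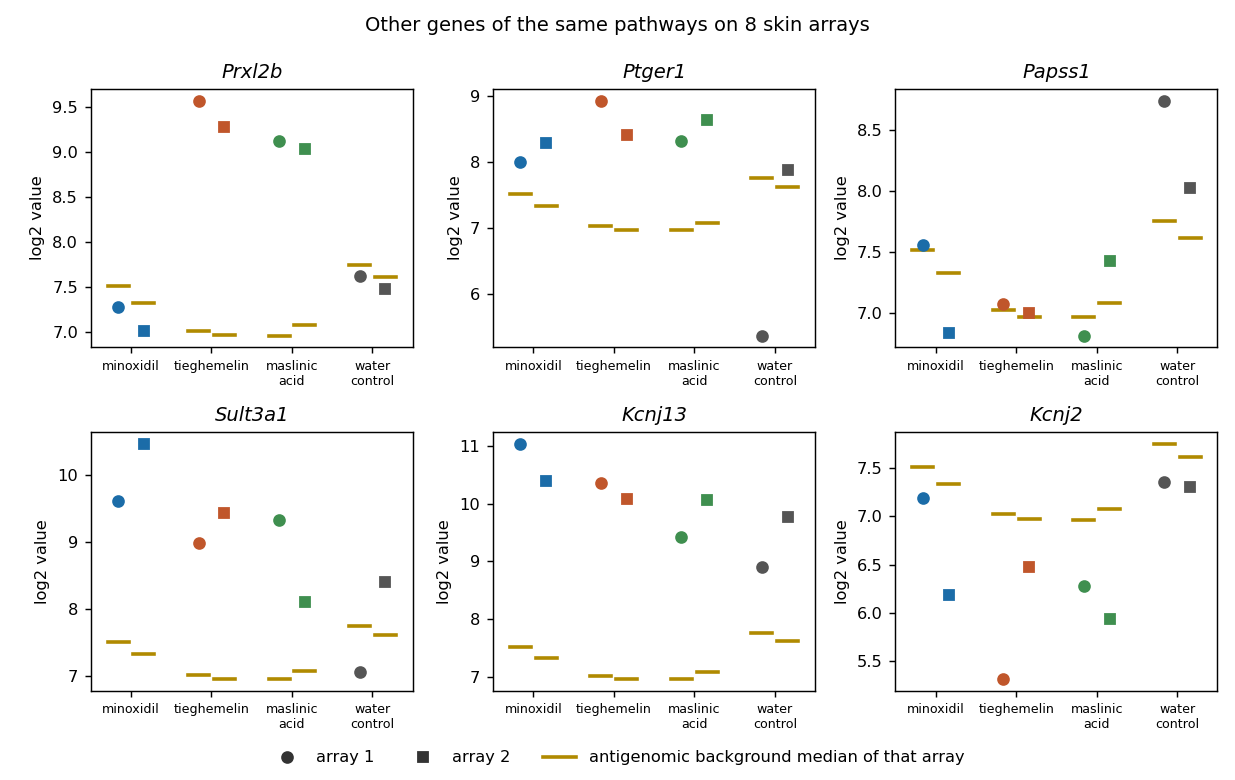
Deposited log2 values (vertical axis) of 6 other genes of these pathways on the 2 arrays of each treatment and of the water control (horizontal axis). Circles are array 1, squares are array 2, and the short bars are the antigenomic background median of the same array. Prxl2b stands above background on the 4 tieghemelin and maslinic acid arrays only, Papss1 is highest on the 2 control arrays, and the Ptger1 value of control array 1, at 5.37, lies far below the other arrays.

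The profiles nearest to those of the listed genes, by the root mean square log2 difference over 8 arrays after each profile had been centred on its own mean, were sought for the 7 genes above background on at least 6 arrays. They were Snapc5 and Akap8l for Kcnj8, Kap and Olig2 for Abcc8, Rhob and Irf2bp1 for Abcc9, Spred1 and Abi1 for Sult1a1, Klf12 and Nqo2 for Ptgs2, Eno2 and Ndufa4l2 for Ptger4, and H2ac21 and Jun for Ptgfr, at 0.06 to 0.16 log2 units. No listed gene was among the nearest of another. The condition on background was set for the listed genes and not for their nearest profiles. Akap8l, Rhob, Irf2bp1, Eno2, Ndufa4l2, H2ac21 and Jun averaged at most 6.90 over the 8 arrays, under the lowest background median of any array, 6.96. The likeness of these genes therefore rested on values near or below background. Over the 7 arrays without control array 1, Rhob for Abcc9, Olig2 for Abcc8 and Spred1 for Sult1a1 were again among the nearest pair, and the other names changed.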

How the data were processed

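The 8 arrays measured RNA of mouse skin in 4 groups of 2, set by the sample titles. The authors deposited log2 values per probe set, with the scale taken from their range. Normalization of the scans used Transcriptome Analysis Console per the labels' design text, and Affymetrix Expression Console and RMA are also named per the submitters' processing notes. A genome build was not given in the sources used here. Values normalised between arrays show change relative to other probe sets.

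Control probe sets (6640) were left out and 22206 were tested without filtering. Names came from the platform annotation, where 19572 probe sets had 1 symbol (each found in RefSeq by gene ID), 0 had several and 2634 had none. limma 3.58.1 in R 4.3.3 was fitted to all 8 arrays, with 4 residual degrees of freedom, eBayes and p-values adjusted by Benjamini-Hochberg across the 22206 probe sets. The smallest 2-sided permutation p for 2 arrays against 2 is 0.333. Precision is limited by the number of arrays. The code was tested on simulated data. Where a group had no array above the antigenomic median, a fold is a bound: per array, the larger of the gene's value and that median stands for the group.

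The genes and lists were chosen with earlier results of these data known. Named were all listed genes, the 3 genes of each other pathway list with the largest absolute difference from control, and the 2 nearest profiles. Sult1c1 in the closing section was chosen after its values were seen.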

Additional observations from a re-analysis of the deposited data

How the results depend on the processing

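The alternatives were a replicate block, brighter probe sets only, quantile normalization, shifting arrays to one median, trended and robust eBayes, a fit on the 2 groups compared alone, leaving out each array in turn, and, added after seeing the data, centring on the antigenomic median and a crossed block for tieghemelin against maslinic acid. With all arrays 0 of 9 listed genes met the study's thresholds in each of 6 comparisons, and that count stayed 0 except as follows. Centring on the antigenomic median gave 1 for tieghemelin and 2 for maslinic acid against control. Over the arrays left out in turn the count ran from 0 to 1 for minoxidil, from 0 to 4 for tieghemelin and from 0 to 4 for maslinic acid, each against control, and from 0 to 1 for maslinic acid against minoxidil. The upper values came without control array 2, where control array 1 was the only control and 47.3%, 47.5% and 47.3% of all probe sets met the thresholds; for maslinic acid against minoxidil the 1 gene, Ptger4, appeared without either control array. The cause was not tested. The titles number the arrays of each group 1 and 2, and the deviations of same-numbered arrays correlated at -0.17 to 0.09. That shows no strong effect shared by number, but with 2 arrays per group it cannot exclude a pairing. With the replicate block 0 of 9 genes met the thresholds in every comparison, and with the crossed block 0 did. Distances from background were unaffected by a common median or by leaving out another array, by construction. Abcc9, Kcnj11, Ptgs2, Ptgds and Ptgfr lay among the dimmer probe sets and have no value under the filter. Values within about 1 log2 unit of background limit what these arrays show for Abcc9, Kcnj11, Ptgds and Ptgfr. The same limit holds for Ptgs2 on both control arrays, which lay -0.56 and 0.04 from background. It also holds for Ptgs2 on both minoxidil arrays, tieghemelin array 1 and maslinic acid array 2 (0.41 to 0.74). Abcc8 lay 0.48 to 0.77 above background on control array 2, minoxidil array 1 and both maslinic acid arrays. Kcnj8 lay 0.05 above background on control array 1 and 1.02 above it on minoxidil array 1.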

Other observations

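Sult1c1, a cytosolic sulfotransferase gene, had the widest gap between the control arrays among the sulfation genes. It read 7.92 and 7.33 with minoxidil, 7.32 and 6.70 with tieghemelin, 7.43 and 7.23 with maslinic acid, and 9.82 and 5.64 on the control arrays. Without control array 1 it differed from control by 1.98 with minoxidil (limma adjusted p = 0.133), 1.36 with tieghemelin and 1.69 with maslinic acid, and with all arrays by -0.11, -0.72 and -0.40. The remaining control array lay below background. With that array set to background, it was at least 1.01-fold higher with minoxidil, and no difference was left for tieghemelin or maslinic acid.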
